A study of Mus musculus with 6 samples.

Results

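The genes described here are the ATF4 response genes and the cytosolic aminoacyl-tRNA synthetases, followed in group 2 innate lymphoid cells (ILC2s) that carried a CRISPR guide against Cbfb. The members were named by a list of 38 genes and found by Entrez number among the 25206 rows of the expression table. A row was found for 35 of them, 16 genes of the ATF4 response and 19 synthetase genes, and Phgdh, Pycr1 and Dars were not analysed here. Knockout cells were ILC2 lines of C57BL/6J mice transduced with a lentiviral CRISPR construct (LentiV2CRISPRGFP) holding a guide against CBFβ, and control cells were the same lines given that construct with a guide that has no target. Both groups grew in IL-2 with IL-33 (10 ng/ml), both were sorted for GFP 6 days after transduction, and each had 3 single-colour arrays. GFP marks cells that took up the construct, not cells that were edited, and nothing in the labels tells if each array of a group had a culture of its own. The p-values therefore cover the spread between these 6 arrays alone, which may be technical. Values are on a log2 scale, on which 1 unit is a doubling of signal, and every difference is knockout minus control.

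ATF4 is a transcription factor of the integrated stress response. Kinases that sense missing amino acids, unfolded proteins, heme deficiency or viral RNA phosphorylate the initiation factor eIF2α, which slows translation in general while ribosomes reach the ATF4 coding sequence more often. ATF4 then pairs with C/EBP proteins and drives genes that make, import and charge amino acids, and activated lymphocytes draw on the same genes when they grow, in part through mTORC1. Synthetases attach each amino acid to its tRNA. Because ATF4 is controlled largely at translation, its transcript, which is what the array measured, need not follow its protein.

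In the check of the labels, Cbfb read 7.88, 7.69 and 7.91 in knockout arrays and 8.53, 8.73 and 8.70 in control arrays, a difference of -0.83 (limma adjusted p = 0.00205), and the array measures neither the edit nor the protein. The gene of its partner Runx1 differed by 1.28 (adjusted p = 0.00121). Of the ILC2 markers, Gata3 read 10.66 to 10.71 in knockout and 10.52 to 10.69 in control arrays, and Klrg1 read 11.35 to 11.37 in knockout and 11.33 to 11.40 in control arrays. Among 9 measured ILC2 markers 4 fell, Icos (-0.78), Il7r (-0.56), Id2 (-0.35) and Il5 (-0.33), and Rora rose (2.22). Rora read 5.62, 5.21 and 5.77 in knockout arrays and 2.94, 3.62 and 3.39 in control arrays. Its control mean of 3.32 lay under the table's median row level of 3.6, so the size of its rise rests on low control values. By the same limma test, at an adjusted p under 0.05, 4.24% of all rows fell and 5.51% rose. In the 6 fits that left out 1 array, Id2 passed without control replicate 1 alone and Il5 passed in none. None of 25 markers of T cells, B cells, macrophages, mast cells or stromal and epithelial cells passed the limma test, and 3 had an unadjusted p under 0.05. Of all rows 10.9% were lower and 12.0% higher at that unadjusted p. Of these 25, 22 stayed under 5 in every array, and the highest was the adhesion gene Epcam at 7.98 to 8.04 in knockout and 7.83 to 8.11 in control arrays. The values come from bulk RNA, so fewer cells of a type and less RNA per cell cannot be told apart.

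ATF4 and its C/EBP partners bind a composite site, the C/EBP-ATF response element, whose letters were searched as TGATGNAAN on both strands (NTTNCATCA on the other strand). Promoter windows of RefSeq (GRCm38.p6), from 250 bases before to 50 bases after an annotated start, were held for 28 of the 35 members, and Cars, Hars, Lars, Nars, Rars, Vars and Wars had none. The letters stood in a window of 8 of these 28 members (28.6%), against 4.5% of the 27025 genes with a window. The list was drawn up from ATF4 response genes and synthetases, so this excess can follow from that choice and was not tested. The sequences around the matches of 7 members are shown because they sit in members that fell and in members that did not pass. Capitals mark the response element letters, each sequence reads along the gene's own strand, and positions count from 1 at the start, with -1 as the base before it.
Chac1: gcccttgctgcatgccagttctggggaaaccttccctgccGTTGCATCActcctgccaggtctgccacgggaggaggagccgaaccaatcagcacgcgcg
Asns: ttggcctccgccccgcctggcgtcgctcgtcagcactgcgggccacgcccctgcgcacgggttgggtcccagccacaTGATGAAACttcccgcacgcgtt
Tars: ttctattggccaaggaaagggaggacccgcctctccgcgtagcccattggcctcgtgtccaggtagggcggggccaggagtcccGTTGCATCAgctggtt
Iars: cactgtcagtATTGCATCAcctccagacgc
Yars: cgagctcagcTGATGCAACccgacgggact
Trib3: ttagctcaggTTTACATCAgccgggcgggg
Gars: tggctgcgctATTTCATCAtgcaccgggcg

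The Chac1 stretch is chr2:119351008-119351107 on the plus strand, and its match covers positions -194 to -186. The Asns stretch is chr6:7693210-7693309 on the minus strand (match at -23 to -15), and the Tars stretch is chr15:11399659-11399758 on the minus strand (match at -16 to -8). The Iars stretch is chr13:49682126-49682155 on the plus strand, the Yars stretch is chr4:129189896-129189925 on the plus strand and the Trib3 stretch is chr2:152344028-152344057 on the minus strand. In these 3 the match lies just past the start, at 7 to 15 in Iars, 4 to 12 in Yars and 14 to 22 in Trib3. The Gars stretch is chr6:55037960-55037989 on the plus strand (match at -31 to -23). Chac1 and Tars share the 9 letters GTTGCATCA.

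By result, the letters stood in 4 of the 6 fallen members with a window (Chac1, Asns, Tars and Iars, but neither Atf4 nor Mthfd2) and in 4 of the 21 members that did not pass. The window of Ddit4, the member that rose, held none. Over all rows with a window, the letters stood in 5.34% of 787 fallen genes, 2.46% of 1056 risen genes and 3.83% of 15609 genes that did not pass. The E-box CACGTG, read by MYC and related factors, stood in 5 of the 28 members (Aldh18a1, Farsb, Iars and Tars among them), against 8.09% of all genes with a window. The letters TGTGGT, a core of the RUNX site, were searched on both strands too and stood in 1 of the 28, Shmt2, against 18.9% of all genes with a window. No E-box or RUNX match overlapped a response element match. A match is a stretch of letters and not a measured binding site. The shares by result rest on few members and were not tested.

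**Figure D1:**
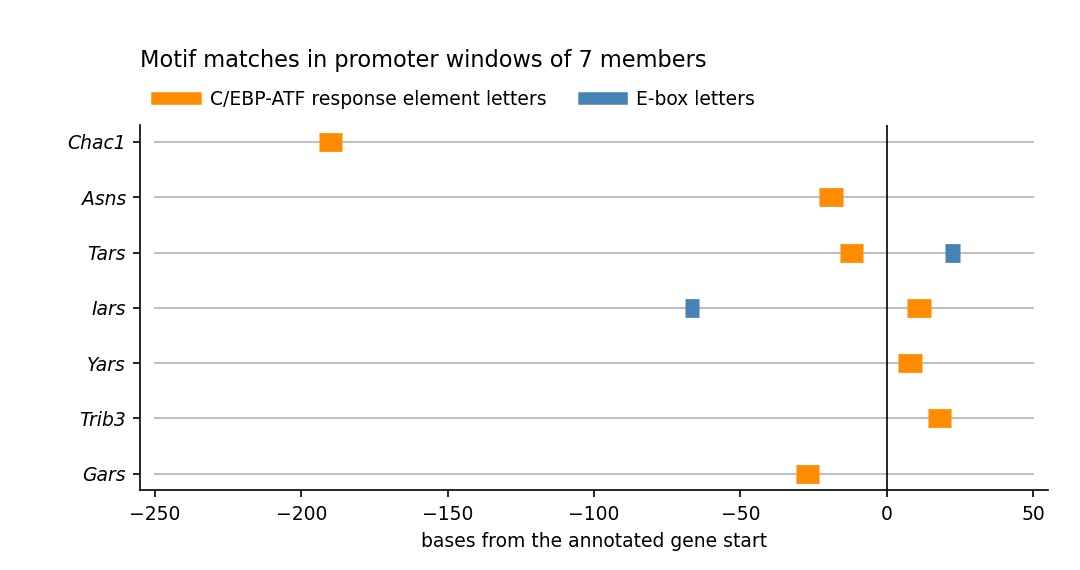
Positions of response element letters (orange) and E-box letters (blue) in the windows of 7 members, in bases from the annotated start (vertical line). The matches of Asns, Tars, Iars, Yars, Trib3 and Gars lie within 31 bases of the start, and that of Chac1 lies at -194 to -186.

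Most members read lower in knockout arrays, by small amounts. Of the 35 members 7 fell (Atf4, Chac1, Asns, Mthfd2, Iars, Nars and Tars), 1 rose (Ddit4) and 27 did not pass, at a limma adjusted p under 0.05 over all rows. Of all rows 4.24% fell and 5.51% rose. All 35 members lie above the median level of the table, and among the 12601 rows above it 7.75% fell and 10.3% rose, against 20% of members that fell. The members were chosen with earlier results of these data known, so this contrast is not an independent test. The 7 falls were 1.28-fold to 1.47-fold. The median difference over the 35 members was -0.19, against -0.007 over all rows and 0.003 over rows above the median level, and 27 of the 35 differences were below 0.

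Knockout and control arrays were fully separated in 22 members. In 20 of them every knockout array lay below every control array, among them the 7 that fell and 13 that did not pass, and in 2, Ddit4 and Cebpg, every knockout array lay above. Of all rows 13.4% had all knockout arrays below and 14.1% all above, and the shares were 20.8% and 23.1% among rows above the median level. In the fits that left out 1 array, and so had fewer arrays to test, 1307 to 1837 of all rows passed, against 2457. Over these fits the difference ran from -0.41 to -0.35 for Asns and from -0.69 to -0.46 for Chac1. The count of fallen members was smaller in each of them too. It was 1 without knockout replicate 2, without knockout replicate 3 or without control replicate 2, and 2 without control replicate 3. It was 4 without control replicate 1 and 5 without knockout replicate 1. Atf4 was among the falls in each of these 6 fits, and Ddit4 rose in each of them.

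**Figure D2:**
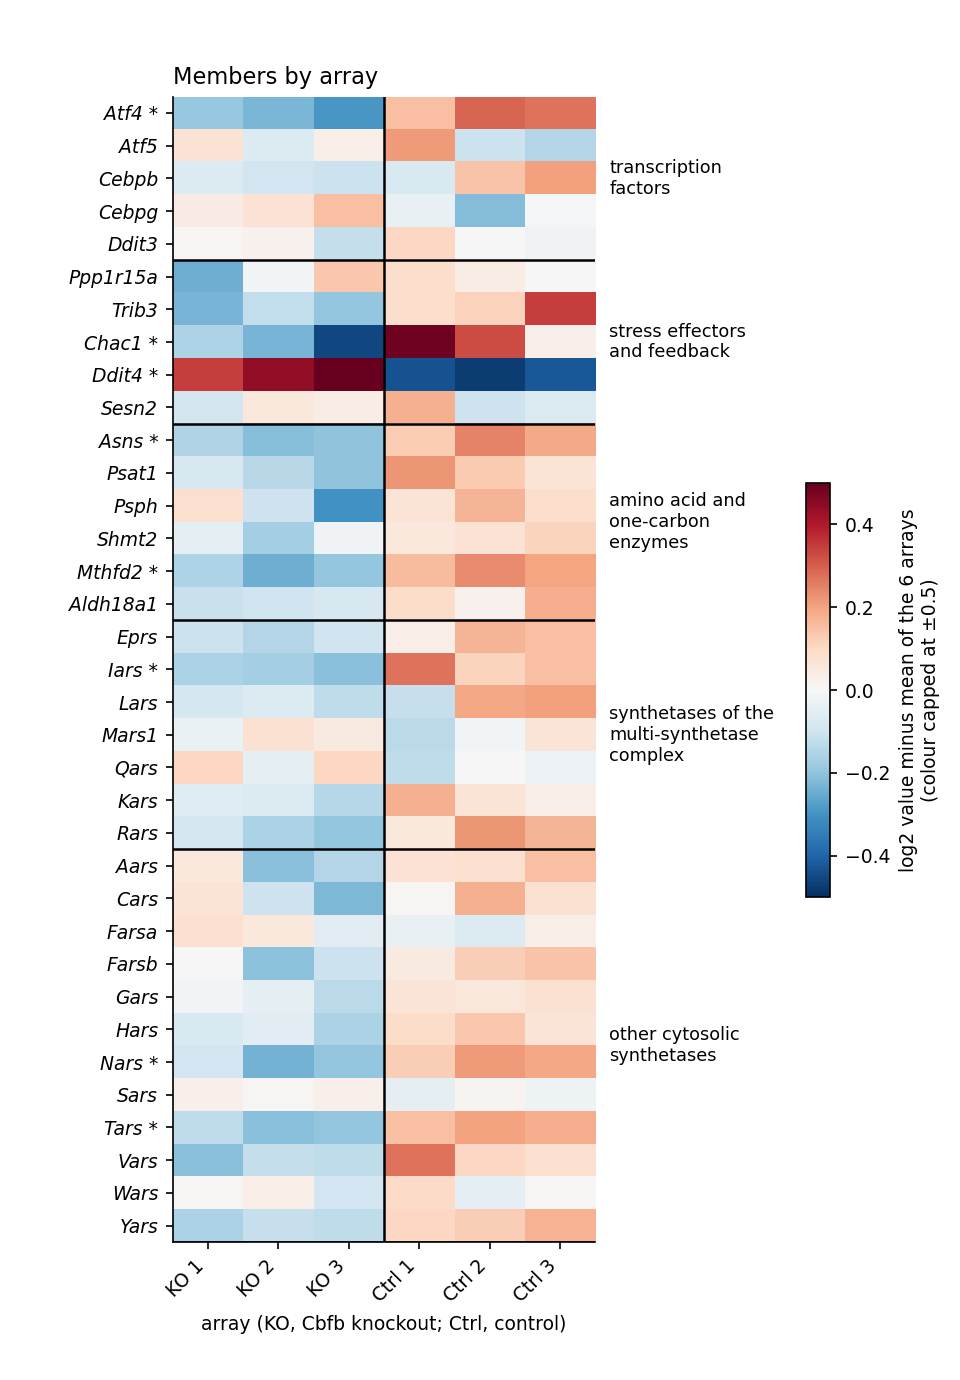
Each row is a member and each column an array, coloured by the log2 value minus that gene's mean over the 6 arrays (red above it, blue below it). Stars mark the 8 members past the test. Knockout columns are mostly blue and control columns mostly red, with Ddit4 the other way round.

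Among the transcription factors, Atf4 fell and the other 4 did not pass. Atf4 (Entrez gene 11911) read 8.80, 8.76 and 8.70 in knockout arrays and 9.14, 9.28 and 9.26 in control arrays. The groups were 0.34 apart at their nearest arrays, more than the range within either group. Its mean was 8.75 ± 0.050 in knockout and 9.23 ± 0.076 in control cells (SD, n = 3 each), a difference of -0.47 with a standard error of 0.083, or 1.39-fold lower (adjusted p = 0.0106). Its adjusted p was under 0.05 in all 13 alternative fits, at 0.000244 to 0.0499, and it did not pass at a threshold of 0.01.

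Ddit3 encodes CHOP, a C/EBP family factor that ATF4 induces under lasting stress. It read 5.94, 5.95 and 5.81 in knockout arrays and 6.03, 5.93 and 5.91 in control arrays, and the groups overlapped (difference -0.06, 95% interval -0.25 to 0.14, adjusted p = 0.771). Cebpg, whose product pairs with ATF4 at response elements, read 6.13, 6.16 and 6.24 in knockout arrays and 6.05, 5.87 and 6.08 in control arrays. Its groups did not overlap, with knockout above control, but the difference of 0.18 did not pass (interval -0.03 to 0.38, adjusted p = 0.301). Cebpb, another C/EBP partner gene, differed by -0.18 (interval -0.40 to 0.04). Atf5, a relative of ATF4 that is also controlled at translation, differed by 0.03 (interval -0.23 to 0.29).

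The stress effectors and feedback genes moved in both directions, with Ddit4 up and Chac1 down. Ddit4 encodes REDD1, an inhibitor of mTORC1 that hypoxia and glucocorticoids induce as well as ATF4. It read 6.71, 6.81 and 6.91 in knockout arrays and 5.93, 5.89 and 5.94 in control arrays, so the groups were far apart for their spread. Its mean was 6.81 ± 0.10 in knockout and 5.92 ± 0.026 in control cells (SD, n = 3 each), a difference of 0.89 with a standard error of 0.085, or 1.85-fold higher (adjusted p = 0.000766). Ddit4 was the 1 member with an adjusted p under 0.01 in the test as reported, and its adjusted p was under 0.05 in all 13 alternatives (adjusted p 3.92e-05 to 0.0156).

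Chac1 encodes an enzyme that degrades glutathione and is a well known ATF4 target. It read 6.23, 6.15 and 5.93 in knockout arrays and 6.87, 6.71 and 6.41 in control arrays. The knockout arrays lay below the control arrays, but both groups spread widely and the nearest arrays were 0.18 apart. Its means were 6.10 ± 0.16 in knockout and 6.66 ± 0.23 in control cells, a difference of -0.56 (1.47-fold lower, adjusted p = 0.0385). This call held without control replicate 3 and did not pass in the fits without any of the other 5 arrays (adjusted p up to 0.119).

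Trib3 encodes a pseudokinase that ATF4 induces and that restrains ATF4 in turn. It read 5.07, 5.18 and 5.11 in knockout arrays and 5.39, 5.42 and 5.65 in control arrays. No arrays overlapped, and the difference of -0.37 missed the test (interval -0.59 to -0.14, adjusted p = 0.0519), which it passed in 4 of 13 alternatives. Ppp1r15a encodes GADD34, the phosphatase subunit that restores eIF2α, and Sesn2 encodes sestrin 2, which senses leucine and restrains mTORC1. Both overlapped between groups. The interval of the difference was -0.33 to 0.17 for Ppp1r15a and -0.24 to 0.24 for Sesn2.

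**Figure D3:**
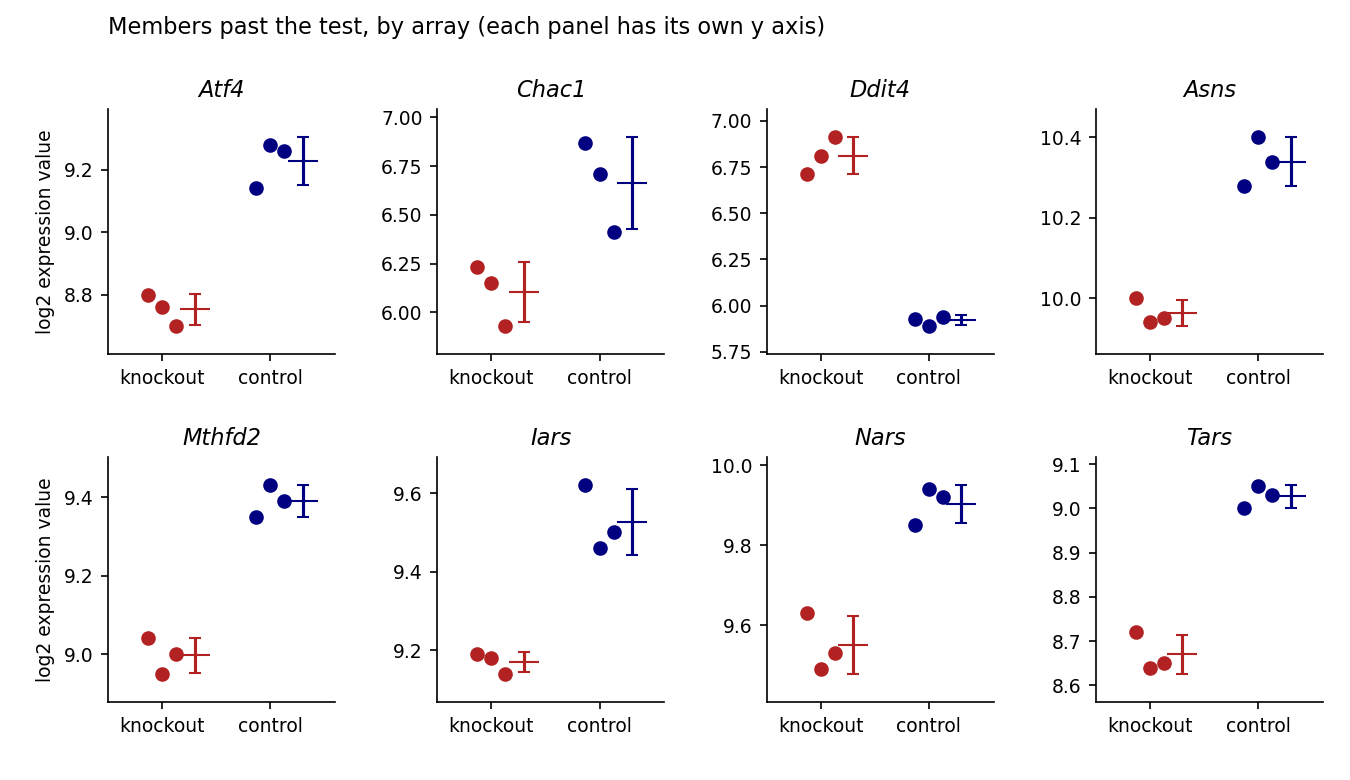
Log2 values of the 8 members past the test, with knockout arrays in red and control arrays in navy blue. Bars show the mean ± SD of 3 arrays, each panel has its own y axis that does not start at 0, and in every panel the groups do not overlap.

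All 6 measured genes of amino acid and one-carbon enzymes read lower on average in knockout cells, and 2 of them, Asns and Mthfd2, fell. The share that fell was 7.75% of rows above the median level and 4.24% of all rows. Asns encodes asparagine synthetase, a standard readout of ATF4 activity. It read 10.00, 9.94 and 9.95 in knockout arrays and 10.28, 10.40 and 10.34 in control arrays. Each group kept within a narrow range, and the difference was -0.38 with a standard error of 0.079 (1.30-fold lower, adjusted p = 0.0218). Mthfd2, the gene of a mitochondrial folate enzyme that proliferating lymphocytes use, read 9.04, 8.95 and 9.00 in knockout arrays and 9.35, 9.43 and 9.39 in control arrays. The groups were again separate, with a difference of -0.39 and a standard error of 0.078 (1.31-fold lower, adjusted p = 0.0176). Asns and Mthfd2 each passed without knockout replicate 1 or control replicate 1 and missed without any of the other 4 arrays, with an adjusted p up to 0.0912 for Asns and 0.0752 for Mthfd2.

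Psat1, which encodes the aminotransferase of serine synthesis, read 8.64, 8.58 and 8.52 in knockout arrays and 8.94, 8.85 and 8.79 in control arrays. Its groups did not overlap, and the difference of -0.28 did not pass (interval -0.47 to -0.09, adjusted p = 0.0803). The rest were Psph, the phosphatase of that route (-0.22), Aldh18a1, which starts proline synthesis from glutamate (-0.19), and Shmt2, which takes serine into mitochondrial one-carbon metabolism (-0.16), none of them past the test. The median of the 6 was -0.25, and 5 of the 6 had every knockout array below every control array, with Psph the exception. Every knockout array lay below in 20.8% of rows above the median level and in 13.4% of all rows.

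Of the 19 cytosolic synthetase genes 3 fell, Iars, Nars and Tars, 16 did not pass and none rose, by limma over all rows. At an unadjusted p under 0.05, 9 were lower and 0 higher, against 17.0% lower and 20.3% higher among rows above the median level. The median difference was -0.19, and differences ran from -0.36 to 0.10. In 12 of the 19 every knockout array lay below every control array, and in 0 did every knockout array lie above. Among rows above the median level those shares were 20.8% and 23.1%, and among all rows 13.4% and 14.1%. By adjusted p, 7.75% of rows above the median level fell and 10.3% rose (4.24% and 5.51% of all rows).

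Tars, the threonine enzyme gene, read 8.72, 8.64 and 8.65 in knockout arrays and 9.00, 9.05 and 9.03 in control arrays. Both groups were tight and the difference was -0.36 with a standard error of 0.077 (1.28-fold lower, adjusted p = 0.0244). Nars, for asparagine, read 9.63, 9.49 and 9.53 in knockout arrays and 9.85, 9.94 and 9.92 in control arrays. Knockout replicate 1 was the highest of its group, 0.22 below the lowest control array, and the difference was -0.35 with a standard error of 0.082 (1.28-fold lower, adjusted p = 0.0324). Iars, for isoleucine, read 9.19, 9.18 and 9.14 in knockout arrays and 9.62, 9.46 and 9.50 in control arrays. Here control replicate 1 stood highest, and the difference was -0.36 with a standard error of 0.082 (1.28-fold lower, adjusted p = 0.0316). Of the fits that left out 1 array, Iars passed in 0 of 6 (adjusted p 0.0708 to 0.0949) and Nars passed without knockout replicate 1 alone. Tars passed without knockout replicate 1 or control replicate 1 and missed without any of the other 4 arrays.

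Rars, for arginine, Vars, for valine, and Yars, for tyrosine, came next and did not pass. Rars read 9.10, 9.03 and 8.99 in knockout arrays and 9.24, 9.41 and 9.36 in control arrays (difference -0.30, adjusted p = 0.0702). Vars read 7.84, 7.93 and 7.92 in knockout arrays and 8.32, 8.15 and 8.13 in control arrays (difference -0.30, adjusted p = 0.0717). Yars read 7.73, 7.77 and 7.76 in knockout arrays and 7.99, 8.01 and 8.06 in control arrays (difference -0.27, adjusted p = 0.0683). None of these 3 overlapped between groups.

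At the other end stood Qars, for glutamine, with a difference of 0.10 (interval -0.10 to 0.30), and Mars1, for methionine, with 0.06 (interval -0.15 to 0.26). Farsa differed by 0.05 and Sars, for serine, by 0.04, and Wars, for tryptophan and also induced by interferon, differed by -0.04. In all 5 the groups overlapped. The enzyme for phenylalanine is built from the products of Farsa and Farsb, which differed by 0.05 (interval -0.14 to 0.24) and by -0.21 (interval -0.41 to -0.0037).

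Some synthetases work inside a multi-synthetase complex and others outside it. Of 7 measured members of the complex, Eprs, Iars, Lars, Mars1, Qars, Kars and Rars, 1 fell and the median was -0.19, and of the 12 outside it 2 fell with a median of -0.20. Eprs, whose enzyme charges tRNAs for both glutamate and proline, differed by -0.24 (interval -0.42 to -0.05, adjusted p = 0.12), and Lars, for leucine, by -0.19. Kars and Gars supply both the cytosol and mitochondria from a single gene, and they differed by -0.18 and -0.13. The remaining Hars (-0.19), Aars (-0.20) and Cars (-0.17) did not pass.

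**Figure D4:**
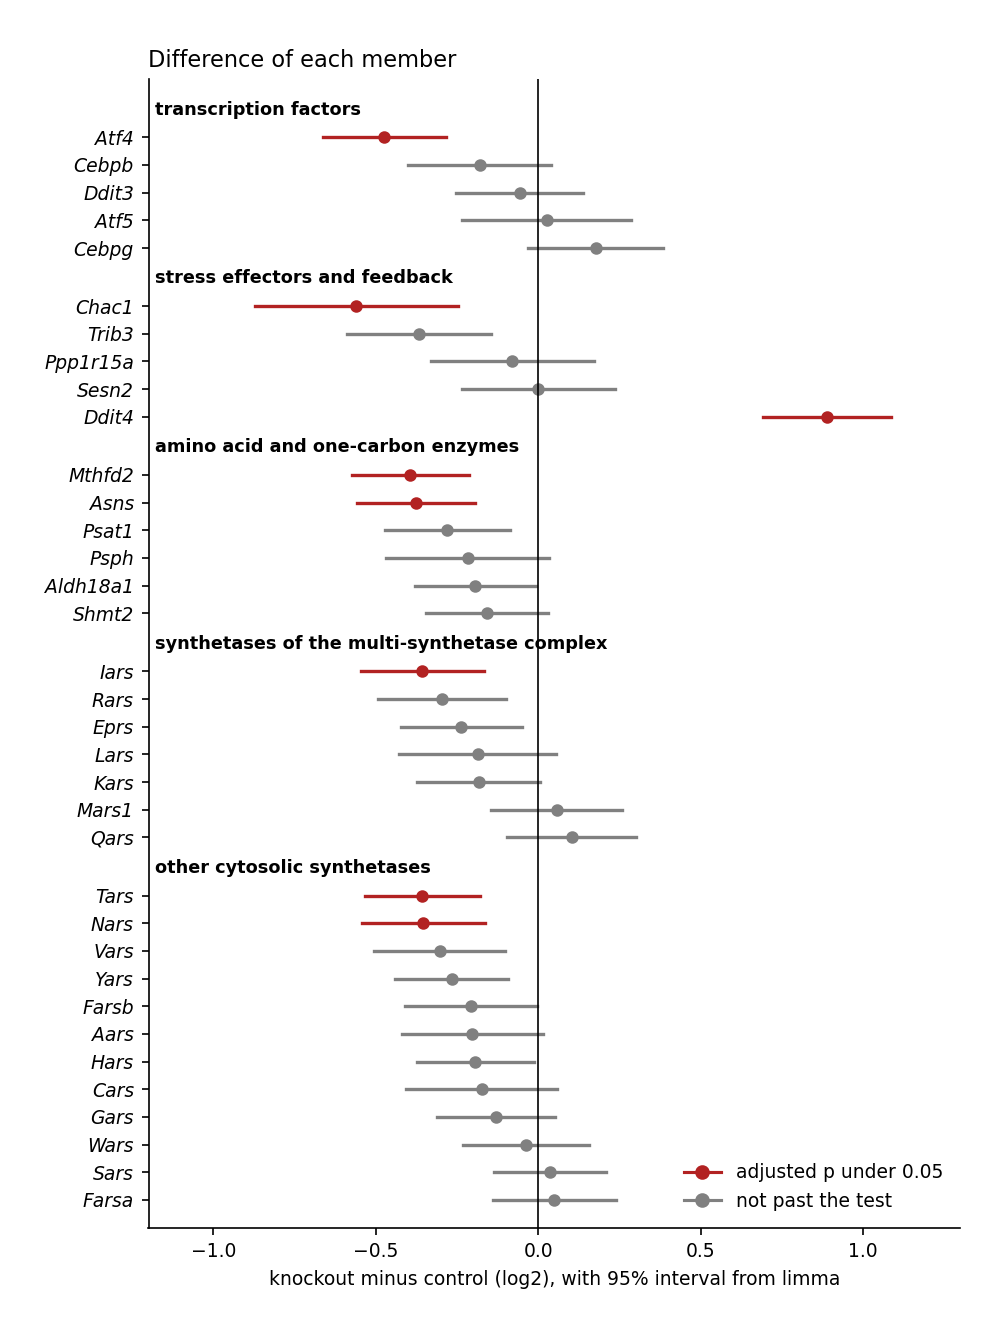
Difference of each of the 35 members (knockout minus control, log2) with its 95% interval from limma, grouped by role. Red marks the 8 members with an adjusted p under 0.05, of which Ddit4 alone lies to the right of 0.

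The difference was of like size in each knockout array. Set against the mean of the control arrays, the median over the 35 members was -0.16 in knockout replicate 1, -0.20 in replicate 2 and -0.22 in replicate 3. The 3 control arrays, each set against the mean of the other control arrays, gave -0.04, -0.005 and 0.015. For the 19 synthetases the medians were -0.15, -0.19 and -0.23 in knockout arrays and -0.045, 0.03 and 0.025 in control arrays. Over all rows they lay between -0.02 and 0.01 in the 6 arrays.

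The mitochondrial synthetases come from separate genes that mostly carry the suffix 2. None of 16 measured passed the limma test, and 1 was lower and 2 higher at an unadjusted p under 0.05. Of all rows 10.9% were lower and 12.0% higher at that p, so the counts of 1 and 2 are near or under the background. Their median was -0.027 and their differences ran from -0.23 to 0.30. Nars2 had the smallest adjusted p (difference 0.30, adjusted p = 0.0561), followed by Cars2 (0.26), Fars2 (-0.23) and Yars2 (-0.21). All 3 Nars2 knockout arrays lay above the control arrays, at 4.89, 4.87 and 5.01 in knockout against 4.60, 4.62 and 4.65 in control arrays, while Nars fell. The scaffolds of the multi-synthetase complex, Aimp1 (-0.26), Eef1e1 (-0.21) and Aimp2 (0.01), did not pass, and 2 had an unadjusted p under 0.05.

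Upstream of ATF4, 13 genes were measured, those of kinases, exchange factors and an eIF2 subunit, with Ppp1r15b, Gcn1 and Impact. Of the 13, 1 rose and 1 fell, with a median of -0.027. The shares over all rows were 5.51% risen and 4.24% fallen. Eif2ak3 encodes PERK, the kinase that answers unfolded proteins. It read 6.38, 6.59 and 6.47 in knockout arrays and 6.09, 6.11 and 6.09 in control arrays (difference 0.38, adjusted p = 0.028), a call that held without knockout replicate 1 and missed without any of the other 5 arrays. Eif2s2, the gene of eIF2β, read 6.28, 5.90 and 6.30 in knockout arrays and 6.67, 6.78 and 6.79 in control arrays (difference -0.59, adjusted p = 0.0201). Its call missed without control replicate 2 and without control replicate 3. Eif2b1, an exchange factor subunit gene, differed by -0.23, and Ppp1r15b, which encodes the constitutive eIF2α phosphatase subunit, by -0.17, and neither passed.

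Other known ATF4 targets moved in both directions. Of 23 measured 6 fell, 2 rose and 15 did not pass, with a median of -0.13 and differences from -1.26 to 0.57. Across all rows 4.24% fell and 5.51% rose, and among rows above the median level 7.75% and 10.3%. Atf3, a stress-induced repressor gene that growth factor and immune signals induce too, read 5.01, 4.61 and 4.67 in knockout arrays and 6.02, 6.08 and 5.97 in control arrays. It was 2.40-fold lower (difference -1.26, adjusted p = 0.000642). Slc7a11, the cystine importer gene, read 5.61, 5.34 and 5.28 in knockout arrays and 6.36, 6.47 and 6.58 in control arrays (2.08-fold lower, adjusted p = 0.00121). Both stood well apart from control and passed in all 13 alternatives. Mthfd1l, whose enzyme works after MTHFD2 in mitochondrial formate production, fell by 0.60 on the log2 scale (adjusted p = 0.00379), and Slc7a1, an arginine and lysine importer gene, fell by 0.72 (adjusted p = 0.00555).

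The remaining 4 of these 8 genes were named after their values were seen. Slc7a5, a large neutral amino acid transporter gene, differed by -0.55 (adjusted p = 0.0108), and Vegfa, the angiogenic factor gene that hypoxia induces, by -0.46 (adjusted p = 0.0183). Stc2, a secreted glycoprotein gene, rose with 8.19, 8.30 and 8.23 in knockout arrays against 7.43, 7.76 and 7.82 in control arrays (difference 0.57, adjusted p = 0.0187). Nupr1, a stress-induced nuclear protein gene, rose with 10.08, 9.78 and 9.87 in knockout arrays against 9.36, 9.47 and 9.45 in control arrays (difference 0.48, adjusted p = 0.0204). Stc2 missed the test without knockout replicate 2 and without knockout replicate 3. Nupr1 passed without knockout replicate 2 and Vegfa without control replicate 3, and each missed without any of the other 5 arrays.

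Enzymes next to the members in these pathways gave 1 fall and 1 rise, where 4.24% of all rows fell and 5.51% rose. Among 9 serine, glycine and folate enzymes Shmt1, the cytosolic counterpart of Shmt2, read 6.35, 6.29 and 6.43 in knockout arrays and 7.02, 6.93 and 7.10 in control arrays (difference -0.66, adjusted p = 0.00307). Mthfd2l (-0.26), Mtr (0.28) and Mthfd1 (-0.20) did not pass. Among 9 proline, glutamine and aspartate enzymes Oat, the gene of ornithine aminotransferase, read 9.21, 9.37 and 9.30 in knockout arrays and 8.38, 8.41 and 8.45 in control arrays (difference 0.88, adjusted p = 0.00067), and Glud1 (-0.24), Got1 (-0.23) and Aldh4a1 (0.17) did not pass. Shmt1 and Oat passed in all 13 alternatives.

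In the other arms of the unfolded protein response 1 of 12 measured genes fell, none rose and 11 did not pass by limma. Across all rows 4.24% fell and 5.51% rose. At an unadjusted p under 0.05, 3 of the 12 genes were lower and 1 higher (10.9% and 12.0% of all rows). The median difference of the 12 was -0.037, and 10 of the 12 differences were below 0, against 12806 of the 25206 rows. In 5 of the 12 every knockout array lay below every control array, and in 1 every knockout array lay above. Those shares were 13.4% and 14.1% of all rows, and 20.8% and 23.1% of rows above the median level. Atf6, the gene of the sensor that moves to the Golgi and becomes a transcription factor, read 7.67, 7.69 and 7.59 in knockout arrays and 8.07, 8.08 and 8.08 in control arrays (difference -0.43, adjusted p = 0.0121), and it missed the test without control replicate 2 (adjusted p = 0.0516). Creld2 (-0.27), the sensor gene Ern1 (0.22) and Hspa5 (-0.19), which encodes the chaperone BiP, did not pass. Xbp1, the target of that sensor's splicing, read 10.37, 10.37 and 10.40 in knockout and 10.40, 10.40 and 10.35 in control arrays.

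**Figure D5:**
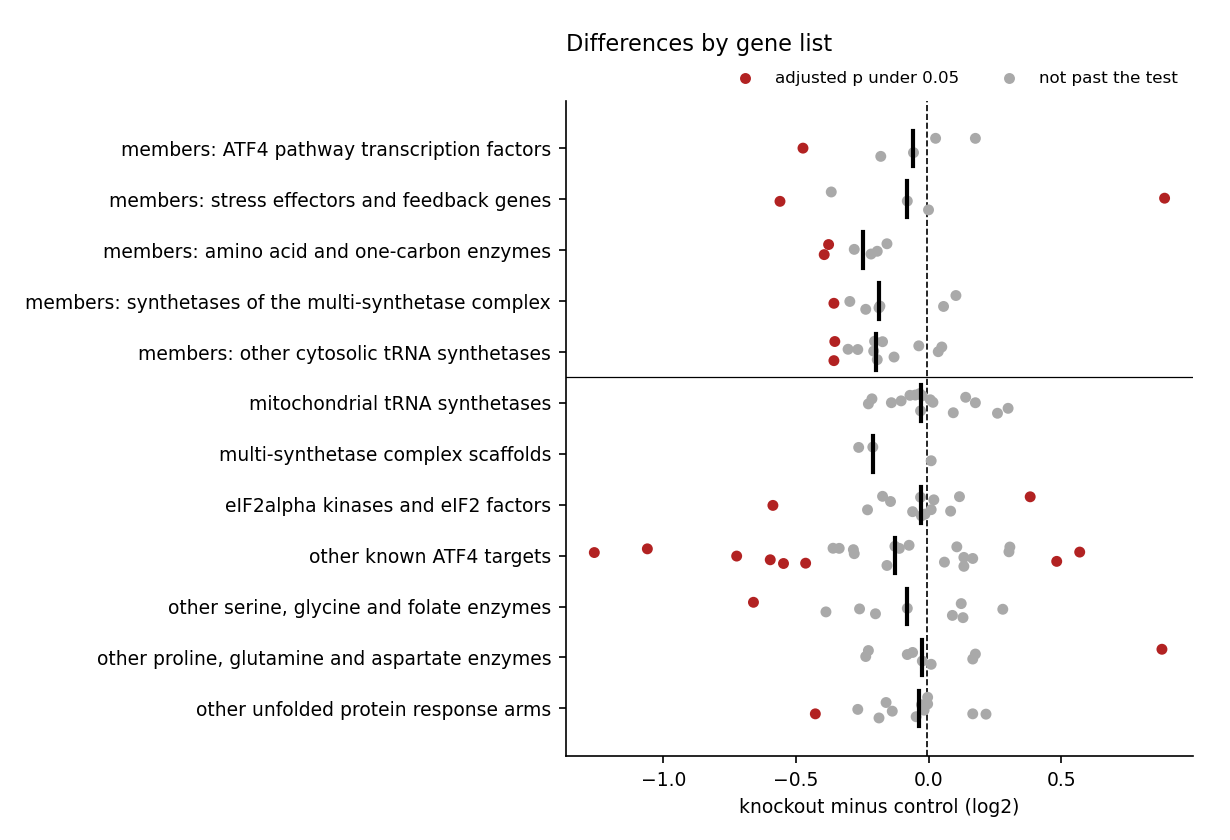
Differences (knockout minus control, log2) of the genes of 5 member lists (above the line) and 7 further lists (below it). Points are genes, red where the adjusted p was under 0.05, thick bars are list medians, and the dashed line is the median of all rows at -0.007.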

How the data were processed

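Biotin-labelled total RNA was read on single-colour arrays, per the labels' protocols. The table the authors deposited holds log2 values, a scale read from their range of 0.66 to 12.51, and RMA and limma 3.14.4 are named, with no role, per the submitters' processing notes. RMA quantile-normalises arrays, which hides any shift common to most genes, and it compresses small signals. There are no detection calls, and the number of arrays limits the precision. Array medians were 3.57 to 3.63, and arrays correlated across rows at 0.9946 to 0.996 inside a group and 0.988 to 0.9908 between knockout and control.

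Of 25206 rows 23185 had 1 gene symbol, 0 several and 2021 none, and all 23185 matched RefSeq (GRCm38.p6) by Entrez number. Values were used as deposited, without a filter, and tested with limma 3.58.1 in R 4.3.3, knockout minus control, two-sided, with Benjamini-Hochberg adjustment over all rows at 0.05. Fold changes are 2 raised to the difference. The test was checked on simulated data, where recovery was required only for changes larger than that of any member. Members and lists were chosen with earlier results of these data known. All members are accounted for. Given by array are those past the test, those differing by at least 0.25, Atf4 and Ddit3, and Cebpg, which was added after its values were seen. From other lists up to 4 genes with the smallest adjusted p are named, besides Slc7a5, Vegfa, Stc2, Nupr1 and Xbp1, chosen after their values were seen. There were 13 alternative fits. Some left out each array in turn or took the replicate number as a block. Others used quantile normalisation again, centring, rows above the median level alone, a trended and robust prior, array weights or no moderation. A threshold of 0.01 was applied to the counts besides. The promoter matches of 1 member are not reported here.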

Additional observations from a re-analysis of the deposited data

How the results depend on the processing

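Of the 34 members with a difference other than 0, 31 kept its sign in all 13 alternative fits. Sesn2, whose difference was 0, ran from -0.052 to 0.088 over the fits that left out 1 array and gave -0.087 after quantile normalisation again. Atf5, Ppp1r15a and Wars turned sign. Atf5 gave -0.057 after quantile normalisation again, and over the fits that left out 1 array it ran from -0.04 to 0.14, below 0 without knockout replicate 1 (-0.0033), control replicate 2 or control replicate 3. Over the same fits Ppp1r15a ran from -0.17 to 0.022, above 0 without knockout replicate 1, and Wars from -0.068 to 0.0017, above 0 without knockout replicate 3 or control replicate 1. Wars gave 0.0014 after quantile normalisation again. Outside the members Aimp2 ran from -0.018 to 0.032, below 0 without knockout replicate 2 or control replicate 3. The count of fallen members, 7 as reported, was 13 among rows above the median level alone and 15 with a trended and robust prior. It was 0 at an adjusted p under 0.01 in limma. At an unadjusted p under 0.05 in limma, 16 members were lower, against 10.9% of all rows and 17.0% of rows above the median level. Over the fits that left out 1 array the count of fallen members was 1 to 5. The count of risen members was 1 under every alternative. Over all rows 2457 passed, 1307 to 1837 in the fits that left out 1 array, 1254 with no moderation and 966 at a threshold of 0.01. With the replicate number as a block 2 members fell and 1 rose, and 1745 of all rows passed. Deviations from the group means of same-numbered arrays correlated at 0.0249, 0.00669 and 0.0539 across rows. Knockout replicates 1 and 3 correlated best with the control array of the same number, and knockout replicate 2 with control replicate 1 (0.0435). Values this low cannot tell if same-numbered arrays shared a culture or a batch. The cause of these changes was not tested, beyond the fewer arrays or other thresholds that define them. Signal over background could not be read from the values.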
